A study of Mus musculus with 12 samples.

Results

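Enzymes that make itaconate, nitric oxide, prostanoids and reactive oxygen species, or remove the last, were read out in mouse glomeruli cultured with TNF. The set held 10 genes, listed by name: Acod1, Nos2, Gch1, Sod2, Sod1, Ptgs1, Ptgs2, Ptges, Cybb and Xdh. Probe sets annotated to 1 of these symbols were taken from the array, and each gene was represented by its lead probe set, the one with the highest mean over the 12 arrays. Of the 10 genes, 9 had at least 1 such probe set, with 22 probe sets in all, against 18194 genes represented in the whole table. No probe set carried the symbol Ptgs1 in the annotation used here, so that gene is named without a value.

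Intact glomeruli were isolated with magnetic beads from male mice, 6 to 8 weeks old, all labelled with C57Bl/6J as background strain, 5000 glomeruli per culture, serum starved and exposed to murine TNF at 50 ng/ml for 12 hours. The genotypes were Tnfr1,2-/- (both B6.129 alleles below, so neither TNF receptor), Tnfr1-/- (strain B6.129-Tnfrsf1atm1Mak), Tnfr2-/- (strain B6.129-Tnfrsf1btm1Mwm) and wildtype, with 3 arrays of each. Double mutants and the wildtype controls came from crosses between the single mutants. All 12 cultures, wildtype included, received TNF, so each difference is one between genotypes under TNF. Cultures without TNF were not analysed here, and no induction by TNF can be read. Glomeruli are a mixture of podocytes, endothelial cells, mesangial cells and resident leukocytes, and in such bulk RNA fewer cells of a type and less RNA per cell cannot be told apart. The arrays of a genotype were described as independent preparations, but the labels do not say whether they came from separate mice, and p-values therefore cover only the spread among these arrays, which may be technical.

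Tumour necrosis factor signals through TNFR1, which is found on most cells, and TNFR2, whose expression is more restricted. Engaged TNFR1 activates NF-κB and mitogen-activated protein kinases, and many of the enzymes described here are known targets of those pathways in macrophages and stromal cells. Itaconate is made from a tricarboxylic acid cycle intermediate, nitric oxide from arginine, prostanoids from arachidonic acid and superoxide from oxygen, and each of these small molecules shapes inflammation and, in the glomerulus, vascular tone and filtration.

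The targeted genes were checked against the labels. Tnfrsf1b, which encodes TNFR2, read 5.51, 5.37 and 5.57 in Tnfr1,2-/- and 5.66, 4.95 and 5.38 in Tnfr2-/- glomeruli, against 7.32, 8.36 and 6.76 in Tnfr1-/- and 7.77, 7.71 and 7.41 in wildtype glomeruli. Tnfrsf1a, which encodes TNFR1, was lower but still bright in both mutants that lack it, at 9.61, 9.14 and 9.11 in Tnfr1,2-/- and 9.80, 10.18 and 9.24 in Tnfr1-/- glomeruli, against 10.77, 10.82 and 10.60 in Tnfr2-/- and 10.70, 10.73 and 10.23 in wildtype glomeruli. It was called in Tnfr1,2-/- glomeruli (log2 change -1.27, limma adjusted p = 0.0228) and not in Tnfr1-/- glomeruli (-0.82, adjusted p = 0.217) against wildtype. Same-numbered Tnfr1-/-, Tnfr2-/- and wildtype arrays deviated together, although the labels do not pair them. With the replicate number as a block, the Tnfr1-/- change of Tnfrsf1a was called too (limma adjusted p = 0.0314). Where its probes lie relative to the deleted part was not tested.

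Markers of the glomerular cell types were bright on all 12 arrays, such as Podxl of podocytes (log2 signal 12.15 to 13.76), Cdh5 of endothelium (9.23 to 10.47) and Pdgfrb of mesangium (11.63 to 12.44), while markers of tubules were dimmer. Of those, Lrp2 and Slc34a1 lay between 3.47 and 5.92, Slc12a1 between 4.40 and 6.21 and Umod between 5.75 and 8.34, and the mean over 8 tubular markers ran from 5.65 to 5.81 in Tnfr1,2-/-, 5.51 to 6.12 in Tnfr1-/-, 5.37 to 5.69 in Tnfr2-/- and 5.20 to 5.68 in wildtype glomeruli. The mean over 6 podocyte markers ran from 11.43 to 11.69 in Tnfr1,2-/-, 10.07 to 11.70 in Tnfr1-/-, 10.59 to 11.35 in Tnfr2-/- and 10.84 to 11.30 in wildtype glomeruli, with 0 of them called against wildtype. That over 9 endothelial markers ran from 8.74 to 9.44, 8.98 to 9.79, 8.88 to 9.44 and 8.47 to 8.95 in the same order, with Kdr called higher in Tnfr1-/- glomeruli, joined by Flt1 with the replicate number as a block (1.19, adjusted p = 0.0128). The part of such shifts in the results was not tested. Arrays also differed in the 3-prime minus 5-prime difference of beta-actin control probe sets, the cause of which was not tested. In 7 arrays (set 1) it was 0.88 ± 0.11 and in 5 arrays (set 2) 2.00 ± 0.20 (SD, log2), and set 2 held array 3 of each genotype and array 2 of the Tnfr1,2-/- glomeruli.

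Loss of TNFR1 went with lower signal of 7 of the 9 measured genes, and loss of TNFR2 alone with no called change. Against wildtype, 6 of the 9 genes were called lower in Tnfr1,2-/- glomeruli, as were 0.879% of all 18194 genes, and 0 were called higher, as were 0.418%. In Tnfr1-/- glomeruli, 6 of the 9 were again called lower, beside 0.72% of all genes, and 0 higher, beside 0.484%. Calls needed a fold of 1.5 or more together with a limma p under 0.05 after Benjamini-Hochberg adjustment over all genes. The median log2 change of the 9 genes was -1.88 in Tnfr1,2-/- and -1.71 in Tnfr1-/- glomeruli, while the medians over all genes were -0.00117 and -0.00487. Both comparisons called Acod1, Gch1, Sod2, Ptges and Cybb, with Xdh added in Tnfr1,2-/- and Ptgs2 in Tnfr1-/- glomeruli. Nos2 and Sod1 were called in neither.

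**Figure D1:**
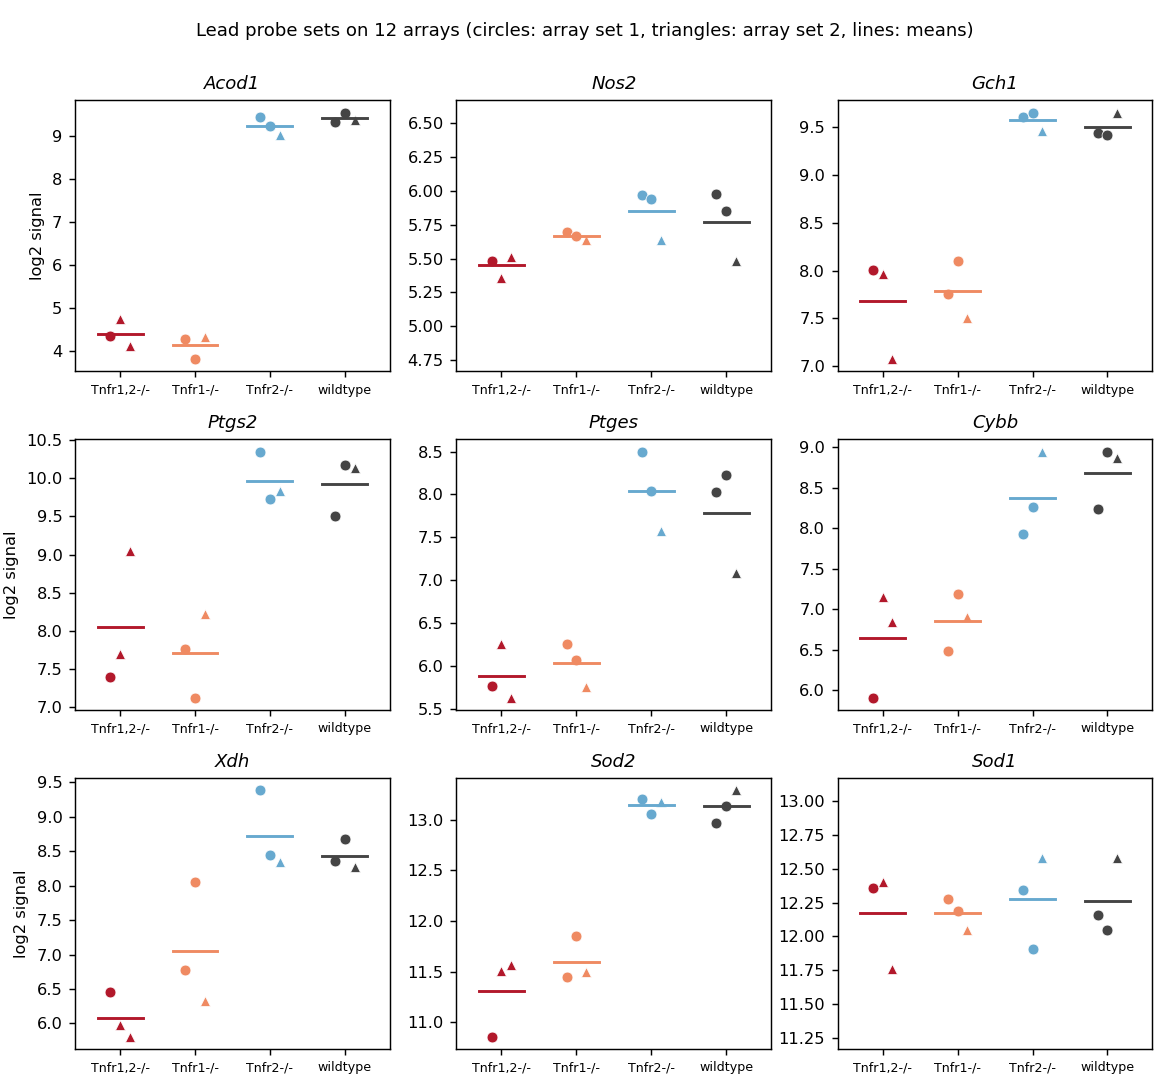
Log2 signal of the lead probe set (vertical axis, a separate scale for each gene) on each of the 12 arrays by genotype, with circles for arrays of set 1, triangles for arrays of set 2 (sets by the beta-actin difference) and lines for the mean of 3 arrays. For 7 genes, every array without Tnfr1 lies below every array with it, and Nos2 and Sod1 do not separate in this way.

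For those 7 genes, the highest of the 6 arrays without Tnfr1 lay below the lowest of the 6 arrays that kept Tnfr1. Of all genes, 1.78% showed such a complete separation downward. Neither Nos2 nor Sod1 did. Taken genotype by genotype, 7 of the 9 genes lay wholly below the wildtype arrays in Tnfr1,2-/- glomeruli (5.77% of all genes) and 7 in Tnfr1-/- glomeruli (5.51%). The comparisons with wildtype all use the same 3 wildtype arrays and are therefore not independent of each other.

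Sequences just upstream of the genes are given to show what the promoters of genes that were lower without TNFR1 look like beside that of Sod1, which was not called. They are the 250 bases before a RefSeq transcript start of each gene in the build GRCm38.p6. They are written from the far end toward the start in the direction of transcription. For Cybb, Ptges and Ptgs1, this start lies inside the annotated span of the gene. Of the 10 genes, 8 were matched in the RefSeq promoter table, and Nos2 and Xdh are named only. Capitals mark matches, on either strand, to 7 motifs: the NF-κB consensus, the interferon-stimulated response element (ISRE, GAAANNGAAA), the interferon-gamma activated site (GAS, TTCNNNGAA), the AP-1 site TGANTCA, the cyclic AMP response element TGACGTCA, the palindromic C/EBP site TTGCGCAA and the TATA box TATAAA.
Acod1, chr14:103046762-103047011, plus strand: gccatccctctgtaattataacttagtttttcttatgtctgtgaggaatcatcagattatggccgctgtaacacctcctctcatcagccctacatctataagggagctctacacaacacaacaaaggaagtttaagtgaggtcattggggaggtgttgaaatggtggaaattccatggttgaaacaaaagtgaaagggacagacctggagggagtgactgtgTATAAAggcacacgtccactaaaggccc
Gch1, chr14:47189414-47189663, minus strand: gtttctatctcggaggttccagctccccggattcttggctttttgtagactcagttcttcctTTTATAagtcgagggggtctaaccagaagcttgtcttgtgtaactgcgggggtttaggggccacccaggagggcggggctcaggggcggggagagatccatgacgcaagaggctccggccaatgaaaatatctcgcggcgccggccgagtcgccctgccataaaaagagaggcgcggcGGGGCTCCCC
Ptgs2, chr1:150099781-150100030, plus strand: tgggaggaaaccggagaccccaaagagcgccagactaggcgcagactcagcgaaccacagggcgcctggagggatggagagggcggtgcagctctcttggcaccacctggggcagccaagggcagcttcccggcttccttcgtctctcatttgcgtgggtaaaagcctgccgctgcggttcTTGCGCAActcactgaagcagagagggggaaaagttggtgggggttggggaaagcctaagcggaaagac
Cybb, chrX:9469325-9469574, minus strand: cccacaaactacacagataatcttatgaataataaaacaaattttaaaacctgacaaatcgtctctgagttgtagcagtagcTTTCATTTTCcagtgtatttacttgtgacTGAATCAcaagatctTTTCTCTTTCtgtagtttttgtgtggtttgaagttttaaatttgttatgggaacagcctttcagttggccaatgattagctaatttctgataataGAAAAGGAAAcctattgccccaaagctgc
Sod2, chr17:13007589-13007838, plus strand: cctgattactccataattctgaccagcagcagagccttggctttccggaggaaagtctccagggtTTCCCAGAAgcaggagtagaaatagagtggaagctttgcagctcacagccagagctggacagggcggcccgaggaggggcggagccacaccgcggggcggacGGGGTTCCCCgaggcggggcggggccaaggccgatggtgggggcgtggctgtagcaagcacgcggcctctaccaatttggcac
Sod1, chr16:90220512-90220761, plus strand: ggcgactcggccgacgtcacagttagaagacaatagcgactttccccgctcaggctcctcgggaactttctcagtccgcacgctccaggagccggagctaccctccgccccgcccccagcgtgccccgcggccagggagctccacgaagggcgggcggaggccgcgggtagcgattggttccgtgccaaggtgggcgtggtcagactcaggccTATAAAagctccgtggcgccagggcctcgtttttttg

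The NF-κB consensus matched in Gch1, at bases 10 to 1 before the start, and in Sod2, at bases 83 to 74, and such a match was present in 7.25% of the 32851 promoters searched. Cybb, which encodes a phagocyte protein, held 3 ISRE matches and an AP-1 match, motifs found in 2.98% and 6.75% of promoters. Ptgs2 held the palindromic C/EBP site at bases 69 to 62, which 0.164% of promoters held. A TATA box lay at bases 28 to 23 before the start of Acod1 and at bases 37 to 32 before that of Sod1, the motif being present in 12.4% of promoters. Sod2 also held a GAS match (7.02% of promoters) and Gch1 a TATA match on the opposite strand. No window of the 8 genes held the cyclic AMP response element, present in 1.55% of promoters, and the windows of Ptges and Ptgs1 held none of the 7 motifs. A match describes these letters only, and no factor binding was measured.

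Acod1 showed the largest change of the 9 genes. It encodes aconitate decarboxylase 1, which makes itaconate from cis-aconitate in the mitochondria of activated macrophages. Its log2 signal was 4.34, 4.75 and 4.11 in Tnfr1,2-/- glomeruli, 4.28, 3.82 and 4.33 in Tnfr1-/- glomeruli, 9.44, 9.23 and 9.01 in Tnfr2-/- glomeruli, and 9.32, 9.54 and 9.37 in wildtype glomeruli. The 6 arrays without Tnfr1 stood apart from the other 6, and within each of these sets the arrays lay within 1 log2 unit. Against wildtype, Acod1 was 32.2-fold lower in Tnfr1,2-/- glomeruli (log2 change -5.01, SE 0.20, limma adjusted p = 4.79e-07) and 38.5-fold lower in Tnfr1-/- glomeruli (-5.27, SE 0.20, adjusted p = 2.75e-07). Without Tnfr1, the signal was below the medians of the arrays, which lay between 5.59 and 5.64, and the deposited values hold no detection call, so how much of the mutants' signal is background is not known and the measured folds are not exact. In Tnfr2-/- glomeruli the change from wildtype was -0.18 (95% confidence interval -0.62 to 0.25, adjusted p = 1).

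None of the other enzymes around itaconate was called without a block. The list of the tricarboxylic acid cycle and its exits held 24 further measured genes, from citrate synthase to the succinate receptor Sucnr1. Of these, 0 were called in any mutant against wildtype, and their median log2 changes were 0.048 for Tnfr1,2-/-, 0.0074 for Tnfr1-/- and -0.0055 for Tnfr2-/- glomeruli. With the replicate number as a block, 1 was called in Tnfr1-/- glomeruli, the isocitrate dehydrogenase Idh1, which was higher by 1.18 (SE 0.19, limma adjusted p = 0.00668). The block raised the calls over all 18194 genes in this comparison from 219 to 437. Idh1 read 11.23, 12.17 and 12.4 in Tnfr1,2-/- and 11.7, 12.41 and 12.22 in Tnfr1-/- glomeruli. It read 11.19, 11.06 and 11.65 in Tnfr2-/- and 10.58, 10.92 and 11.29 in wildtype glomeruli.

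Of the pair that acts in nitric oxide synthesis, Gch1 was called lower and Nos2 was not. Gch1 encodes GTP cyclohydrolase 1, the first and rate-limiting enzyme of tetrahydrobiopterin synthesis, the cofactor that all nitric oxide synthases need. Gch1 signal was 8.01, 7.96 and 7.08 in Tnfr1,2-/- glomeruli, 7.76, 8.10 and 7.50 in Tnfr1-/- glomeruli, 9.60, 9.65 and 9.46 in Tnfr2-/- glomeruli, and 9.44, 9.42 and 9.65 in wildtype glomeruli. Every array without Tnfr1 was lower than every array with it, and the lowest value was that of Tnfr1,2-/- array 3. The change from wildtype was -1.82 (SE 0.24, 3.53-fold lower, limma adjusted p = 0.00217) in Tnfr1,2-/- glomeruli and -1.71 (SE 0.24, 3.28-fold lower, adjusted p = 0.00399) in Tnfr1-/- glomeruli. In Tnfr2-/- glomeruli it was 0.069, with an interval from -0.45 to 0.59. The other probe set of Gch1 gave changes of -1.22 and -1.24 in Tnfr1,2-/- and Tnfr1-/- glomeruli, both called when all probe sets were tested, although its identifier marks it as able to match several transcripts.

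Nos2 encodes the inducible nitric oxide synthase. Its single probe set read 5.48, 5.36 and 5.51 in Tnfr1,2-/- glomeruli, 5.70, 5.67 and 5.64 in Tnfr1-/- glomeruli, 5.97, 5.94 and 5.64 in Tnfr2-/- glomeruli, and 5.98, 5.85 and 5.48 in wildtype glomeruli. These values lie around the arrays' medians, so the signal was dim in all 4 genotypes, and the wildtype arrays overlapped with those of each mutant. The change was -0.32 (interval -0.65 to 0.011, limma adjusted p = 0.607) in Tnfr1,2-/- and -0.10 (interval -0.43 to 0.23, adjusted p = 1) in Tnfr1-/- glomeruli against wildtype. Nos2 was the only one of the 9 genes that did not reach a log2 signal of 6 on at least 3 arrays. A change in Nos2 of the size seen for Gch1 lies outside both intervals, but a dim probe set can understate a change.

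Arg2 and Slc7a2 were lower without TNFR1. Of 19 further genes of the nitric oxide and tetrahydrobiopterin list, 2 were called lower and 1 higher in Tnfr1,2-/- glomeruli, and 2 lower and 2 higher in Tnfr1-/- glomeruli, while in Tnfr2-/- glomeruli 0 were called. With the replicate number as a block, Nostrin was also called higher in Tnfr1-/- glomeruli (1.04, limma adjusted p = 0.0436). Their median changes were 0.14, -0.067 and 0.032 in that order. Arg2, the mitochondrial arginase that competes with nitric oxide synthases for arginine, read 5.42, 5.40 and 5.88 in Tnfr1,2-/- glomeruli, 5.64, 5.63 and 5.39 in Tnfr1-/- glomeruli, 8.22, 8.16 and 7.87 in Tnfr2-/- glomeruli, and 7.93, 8.18 and 8.60 in wildtype glomeruli. Its change was -2.67 (SE 0.20, limma adjusted p = 3.26e-05) in Tnfr1,2-/- and -2.68 (SE 0.20, adjusted p = 3.73e-05) in Tnfr1-/- glomeruli. Slc7a2, the cationic amino acid transporter that brings arginine into the cell, changed by -2.01 and -1.98 (SE 0.23, adjusted p = 0.000879 and 0.001).

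Subunits of soluble guanylate cyclase, the receptor for nitric oxide, were higher without TNFR1. Gucy1a1 was higher than wildtype by 1.35 in Tnfr1,2-/- glomeruli (SE 0.22, limma adjusted p = 0.00962) and by 1.62 in Tnfr1-/- glomeruli (adjusted p = 0.00368). Gucy1b1 was called in Tnfr1-/- glomeruli (0.81, SE 0.15, adjusted p = 0.0188), with 0.51 (adjusted p = 0.199) in Tnfr1,2-/- glomeruli. Both are abundant in mesangial and smooth muscle cells, and Itga8, a mesangial marker, was higher by 1.40 in Tnfr1-/- glomeruli (adjusted p = 0.00524) with 0.94 in Tnfr1,2-/- glomeruli (adjusted p = 0.0562). The mean of the 7 mesangial and smooth muscle markers ranged from 9.97 to 10.45 in Tnfr1,2-/-, from 10.07 to 10.51 in Tnfr1-/-, from 9.96 to 10.34 in Tnfr2-/- and from 9.89 to 10.36 in wildtype glomeruli, and the part of cell makeup in the cyclase change was not tested. The other synthases Nos1 and Nos3 (0.14 and 0.39 in Tnfr1,2-/-, 0.17 and 0.72 in Tnfr1-/- glomeruli), the cofactor enzymes Pts and Spr, the GTP cyclohydrolase feedback regulator Gchfr, and Ass1, which regenerates arginine, were not called in any mutant.

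Both measured enzymes of inducible prostaglandin E2 synthesis were lower without TNFR1. Ptgs2 encodes cyclooxygenase-2, the inducible enzyme that commits arachidonic acid to prostanoids. Its signal was 7.40, 7.70 and 9.05 in Tnfr1,2-/- glomeruli, 7.76, 7.13 and 8.23 in Tnfr1-/- glomeruli, 10.35, 9.73 and 9.83 in Tnfr2-/- glomeruli, and 9.50, 10.17 and 10.13 in wildtype glomeruli. No array without Tnfr1 reached a wildtype value, but Tnfr1,2-/- array 3, at 9.05, came within 1 log2 unit of the lowest wildtype array. In Tnfr1-/- glomeruli the change from wildtype was -2.23 (SE 0.41, 4.68-fold lower, limma adjusted p = 0.0219). In Tnfr1,2-/- glomeruli it was -1.88 (SE 0.41, 3.69-fold lower) and missed the threshold (adjusted p = 0.0548), and without Tnfr1,2-/- array 3 it was -2.38 and called (adjusted p = 0.00656). A term for the array set also brought the call (-2.04, adjusted p = 0.00921), as did the replicate block (adjusted p = 0.00984) and array weights (-2.08, adjusted p = 0.0013). Leaving out Tnfr1-/- array 2 or 3, which changes the shared spread, also brought the call (adjusted p = 0.0462 and 0.0486). The Tnfr1-/- call was lost without Tnfr1-/- array 1 or 2 or without wildtype array 2 or 3, with adjusted p up to 0.117 and changes between -1.94 and -2.25.

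The other Ptgs2 probe set did not place that array so high. On it the signal was 5.98, 5.47 and 5.95 in Tnfr1,2-/- glomeruli, 6.23, 5.61 and 5.72 in Tnfr1-/- glomeruli, 8.65, 7.79 and 7.11 in Tnfr2-/- glomeruli, and 7.85, 8.16 and 7.07 in wildtype glomeruli. The changes were -1.89 and -1.84 in Tnfr1,2-/- and Tnfr1-/- glomeruli, close to those of the lead probe set, with limma adjusted p of 0.0649 and 0.08 over all probe sets. The 2 probe sets differed in how the array sets shifted them: set 2 was 0.46 higher than set 1 on the lead probe set and 0.63 lower on the other. With the mean of both probe sets, Ptgs2 was called in Tnfr1,2-/- glomeruli too (adjusted p = 0.013).

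Ptges encodes the inducible microsomal prostaglandin E synthase, which turns the cyclooxygenase product into prostaglandin E2. Its signal was 5.76, 6.25 and 5.63 in Tnfr1,2-/- glomeruli, 6.26, 6.07 and 5.75 in Tnfr1-/- glomeruli, 8.50, 8.04 and 7.57 in Tnfr2-/- glomeruli, and 8.03, 8.23 and 7.08 in wildtype glomeruli. Wildtype array 3 was the lowest of the 6 arrays with Tnfr1 and still above all 6 without. The change was -1.90 (SE 0.32, 3.73-fold lower, limma adjusted p = 0.0106) in Tnfr1,2-/- and -1.75 (SE 0.32, 3.37-fold lower, adjusted p = 0.0197) in Tnfr1-/- glomeruli. The Tnfr1,2-/- call was lost without wildtype array 1 or 2 or Tnfr1,2-/- array 3 (adjusted p up to 0.0656), and the Tnfr1-/- call without wildtype array 1 or 2 or Tnfr1-/- array 2 or 3 (up to 0.109). In Tnfr2-/- glomeruli the change was 0.26, with an interval from -0.44 to 0.95.

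Further along the prostanoid pathway, the receptor for prostacyclin moved with these enzymes. Of 24 other measured genes of the list, 1 was called lower in Tnfr1,2-/- glomeruli and 1 in Tnfr1-/- glomeruli, and none was called higher. With the replicate number as a block, 2 were called lower in Tnfr1-/- glomeruli, the phospholipase Pla2g4a, which releases arachidonic acid, being the other (-1.22, limma adjusted p = 0.0188). The medians of these genes were -0.000612 and 0.017. The gene called in both was Ptgir, which read 5.72, 5.79 and 6.38 in Tnfr1,2-/- glomeruli, 6.00, 6.68 and 6.34 in Tnfr1-/- glomeruli, 8.27, 7.81 and 8.36 in Tnfr2-/- glomeruli, and 7.80, 8.06 and 8.12 in wildtype glomeruli. Its changes were -2.03 (SE 0.23, limma adjusted p = 0.000879) and -1.65 (SE 0.23, adjusted p = 0.00412). The constitutive prostaglandin E synthase Ptges2 (-0.23 and -0.073) and the prostacyclin synthase Ptgis (0.067 and 0.17) were not called. Ptges3 was not analysed here.

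**Figure D2:**
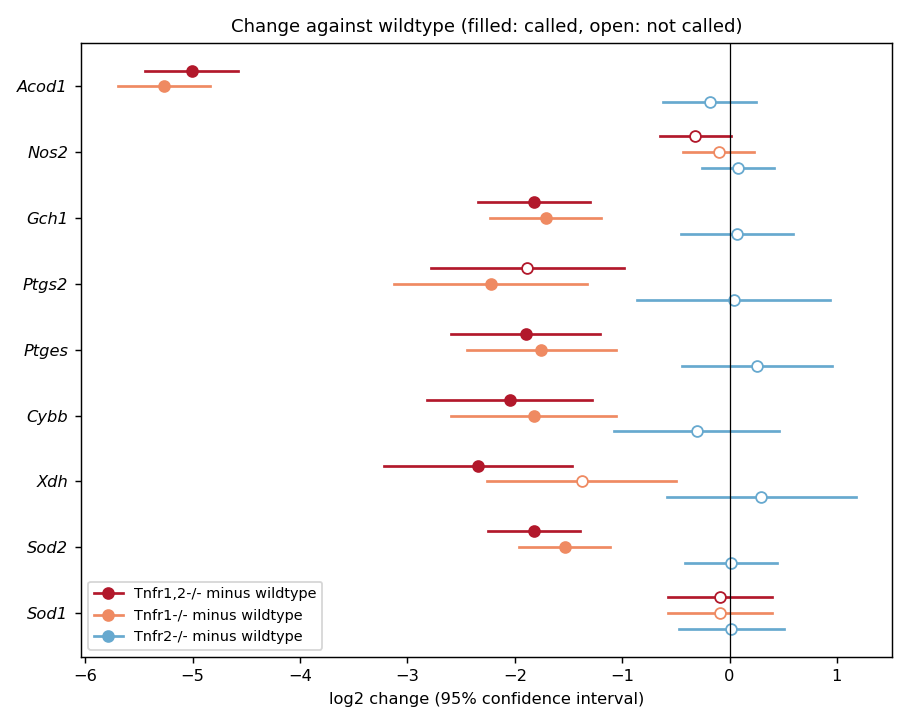
Log2 change of each gene (rows) against wildtype, with its 95% confidence interval (horizontal axis), for Tnfr1,2-/-, Tnfr1-/- and Tnfr2-/- glomeruli from top to bottom, filled where called. Acod1 lies near -5 in both genotypes without Tnfr1, 6 other genes lie between -1.38 and -2.34 there, and all Tnfr2-/- intervals include 0.

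Among oxidant sources, Cybb and Xdh were both lower in Tnfr1,2-/- glomeruli. Cybb encodes gp91phox, the catalytic subunit of the phagocyte NADPH oxidase, which makes superoxide. Its signal was 5.91, 7.15 and 6.84 in Tnfr1,2-/- glomeruli, 6.49, 7.19 and 6.90 in Tnfr1-/- glomeruli, 7.93, 8.26 and 8.95 in Tnfr2-/- glomeruli, and 8.24, 8.94 and 8.87 in wildtype glomeruli. Array 1 was the lowest of each genotype, and the genotypes with and without Tnfr1 did not overlap. The change from wildtype was -2.05 (SE 0.35, 4.13-fold lower, limma adjusted p = 0.0126) in Tnfr1,2-/- and -1.82 (SE 0.35, 3.54-fold lower, adjusted p = 0.0276) in Tnfr1-/- glomeruli. The Tnfr1,2-/- call was lost without wildtype array 2 or 3 (adjusted p = 0.0777 and 0.058), and the Tnfr1-/- call without wildtype array 2 or 3, Tnfr1-/- array 1 or 3 or Tnfr2-/- array 2 (up to 0.14). In Tnfr2-/- glomeruli the change was -0.30, with an interval from -1.07 to 0.46.

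Cybb is made mainly by myeloid cells, whose markers were therefore read on the same arrays. Their part in the Cybb change was not tested. None of the 14 macrophage markers was called against wildtype in Tnfr1,2-/-, Tnfr1-/- or Tnfr2-/- glomeruli, and their median changes were -0.21, 0.24 and 0.31. Their mean log2 signal was 7.14, 7.60 and 7.03 in Tnfr1,2-/- glomeruli, 7.62, 8.30 and 7.15 in Tnfr1-/- glomeruli, 7.53, 8.21 and 7.45 in Tnfr2-/- glomeruli, and 7.24, 7.76 and 7.25 in wildtype glomeruli. These ranges overlapped between all 4 genotypes. The leukocyte marker Ptprc lay between 6.95 and 8.35 over the 12 arrays, Adgre1 between 5.83 and 7.13, Csf1r between 8.37 and 9.69 and Cd68 between 8.26 and 10.66. Neutrophil markers were dim, with means of 4.27 to 4.65 in Tnfr1,2-/-, 4.44 to 4.59 in Tnfr1-/-, 4.76 to 4.77 in Tnfr2-/- and 4.66 to 4.85 in wildtype glomeruli, so all 6 arrays without Tnfr1 lay below all 6 with it. Of 10, Camp alone was called against wildtype (-1.71 and -1.69 in Tnfr1,2-/- and Tnfr1-/- glomeruli, adjusted p = 0.0297 and 0.0314). Estimated from 6 arrays without Tnfr1 against 6 with it, 2 of the 10 were called lower, Camp (-1.78, adjusted p = 0.00109) and S100a8 (-1.22, adjusted p = 0.0022). S100a8 ranged from 3.66 to 4.52 without Tnfr1 and from 4.72 to 5.77 with it. S100a9 ranged the other way, from 4.31 to 4.83 without Tnfr1 and from 4.07 to 4.33 with it. S100a9, Mpo and Elane stayed under a log2 signal of 5 on all arrays. The median change of the 10 neutrophil markers on loss of Tnfr1 was 0.014.

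The partner subunits of the oxidase were not called against wildtype without a block. Cyba, the membrane partner of gp91phox, read 10.24, 9.83 and 9.15 in Tnfr1,2-/- glomeruli, 10.78, 10.96 and 9.40 in Tnfr1-/- glomeruli, 11.59, 12.10 and 10.29 in Tnfr2-/- glomeruli, and 11.43, 11.69 and 10.69 in wildtype glomeruli. In every genotype array 3 was the lowest, and the Tnfr1,2-/- change was -1.53 with an interval from -2.66 to -0.40 (limma adjusted p = 0.343). The Tnfr1-/- change was -0.89 (interval -2.03 to 0.24, adjusted p = 1), and with the replicate number as a block, which pairs these arrays, it was called (SE 0.20, adjusted p = 0.0443), as was the difference from Tnfr2-/- glomeruli (-0.95, adjusted p = 0.0317). The cytosolic subunits Ncf1 (0.013 and 0.35 in Tnfr1,2-/- and Tnfr1-/- glomeruli) and Ncf4 (-0.68 and -0.67) were not called. Of 14 other measured genes of oxidant sources, 1 was called lower in Tnfr1,2-/- glomeruli and 0 were called in Tnfr1-/- glomeruli, or 1 (Cyba) with the block. The Tnfr1,2-/- call was Hvcn1, the voltage-gated proton channel that balances the charge moved by the oxidase, with a change of -1.03 (SE 0.18, adjusted p = 0.0168) in Tnfr1,2-/- and -0.58 (adjusted p = 0.296) in Tnfr1-/- glomeruli.

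Xdh encodes xanthine dehydrogenase, which ends purine breakdown in uric acid and, in its oxidase form, yields superoxide and hydrogen peroxide. Its signal was 6.46, 5.98 and 5.81 in Tnfr1,2-/- glomeruli, 6.78, 8.05 and 6.33 in Tnfr1-/- glomeruli, 9.38, 8.45 and 8.34 in Tnfr2-/- glomeruli, and 8.35, 8.67 and 8.27 in wildtype glomeruli. Tnfr1-/- array 2 stood over 1 log2 unit above the other Tnfr1-/- arrays and just under the lowest wildtype array. The change from wildtype was -2.34 in Tnfr1,2-/- glomeruli (SE 0.40, 5.08-fold lower, limma adjusted p = 0.0126) and -1.38 in Tnfr1-/- glomeruli (SE 0.40, 2.59-fold lower, adjusted p = 0.218). The Tnfr1-/- change passed the threshold once the array set was a term in the fit (-1.38, adjusted p = 0.0335) and with array weights (-1.51, adjusted p = 0.0435), and missed the threshold with the replicate block (adjusted p = 0.0589). Without Tnfr1-/- array 2, it was -1.87 and called (adjusted p = 0.0203).

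Tnfr1-/- array 2 also stood out in cell type markers. Its mean over the 14 macrophage markers, 8.30, was the highest of the 12 arrays, and its mean over the 6 podocyte markers, 10.07, was the lowest, with Wt1 at its minimum of 8.98. Its endothelial (9.79) and mesangial (10.51) means were the highest of the 12. Their part in the Xdh level was not tested. The call of Xdh in Tnfr1,2-/- glomeruli was lost without wildtype array 1 or 2 or Tnfr1,2-/- array 2 or 3, with adjusted p between 0.0506 and 0.0762 and changes of -2.21 to -2.38.

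Of the superoxide dismutases, Sod2 was called lower without TNFR1 and Sod1 was not. Sod2 encodes the mitochondrial manganese enzyme, a known NF-κB target, and Sod1 the cytosolic copper and zinc enzyme, which is expressed in nearly all cells. Sod2 signal was 10.86, 11.51 and 11.57 in Tnfr1,2-/- glomeruli, 11.45, 11.85 and 11.50 in Tnfr1-/- glomeruli, 13.21, 13.06 and 13.18 in Tnfr2-/- glomeruli, and 12.97, 13.14 and 13.29 in wildtype glomeruli. The arrays with and without Tnfr1 were separated by over 1 log2 unit. The change from wildtype was -1.82 (SE 0.19, 3.54-fold lower, limma adjusted p = 0.000569) in Tnfr1,2-/- and -1.54 (SE 0.19, 2.90-fold lower, adjusted p = 0.00228) in Tnfr1-/- glomeruli. In Tnfr2-/- glomeruli it was 0.015, with an interval from -0.41 to 0.44. The 4 Sod2 probe sets gave changes of -1.82 to -2.31 in Tnfr1,2-/- glomeruli and -1.54 to -2.14 in Tnfr1-/- glomeruli.

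Sod1 was not called in any mutant. It read 12.36, 12.40 and 11.76 in Tnfr1,2-/- glomeruli, 12.28, 12.19 and 12.05 in Tnfr1-/- glomeruli, 12.34, 11.91 and 12.58 in Tnfr2-/- glomeruli, and 12.16, 12.05 and 12.58 in wildtype glomeruli. All 4 genotypes overlapped. The changes were -0.089 (interval -0.58 to 0.40), -0.09 (-0.58 to 0.40) and 0.017 (-0.47 to 0.50) in Tnfr1,2-/-, Tnfr1-/- and Tnfr2-/- glomeruli, and 0 of its 5 probe sets were called in any of these comparisons.

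Few other antioxidant genes were called. Of 25 other measured genes of that list, 1 was called lower in Tnfr1,2-/- glomeruli and 1 in Tnfr1-/- glomeruli, and the medians of these genes were -0.34 and -0.20. With the replicate number as a block, Nqo1, a quinone reductase, was also called lower in Tnfr1-/- glomeruli (-0.76, limma adjusted p = 0.0443). The gene called without a block was Slc7a11, the cystine transporter that feeds glutathione synthesis. It read 6.07, 6.27 and 6.15 in Tnfr1,2-/- glomeruli, 6.29, 6.26 and 5.97 in Tnfr1-/- glomeruli, 7.59, 7.54 and 7.93 in Tnfr2-/- glomeruli, and 7.66, 7.61 and 7.49 in wildtype glomeruli. Its changes were -1.43 and -1.42 (SE 0.14, limma adjusted p = 0.000392 and 0.000425). The extracellular dismutase Sod3 (-0.60 and -0.29) and catalase, Cat (-0.028 and -0.17), were not called.

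**Figure D3:**
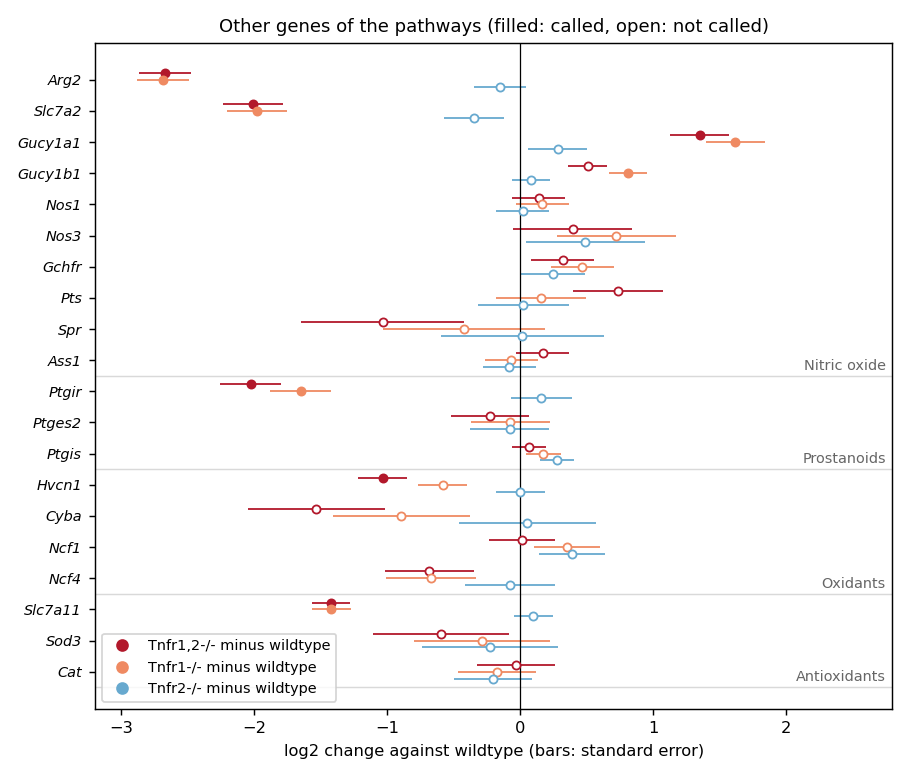
Log2 change against wildtype (horizontal axis, bars show the standard error) of other genes of the 4 pathways (rows) in Tnfr1,2-/-, Tnfr1-/- and Tnfr2-/- glomeruli from top to bottom, filled where called. Arg2, Slc7a2, Ptgir and Slc7a11 lie left of -1.4 in both genotypes without Tnfr1, Gucy1a1 lies right of 1.3, and nearly all other points are open.

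Probe sets other than the lead ones gave the same direction. The 7 genes that were lower without Tnfr1 had 16 probe sets, and all 16 had a negative change in Tnfr1,2-/- and in Tnfr1-/- glomeruli, of which 12 and 10 were called when every probe set of the array was tested, beside 0.448% and 0.361% of all probe sets called lower. The 6 probe sets of Nos2 and Sod1 gave 0 calls. In that test the lead probe set of Cybb was not called in Tnfr1-/- glomeruli (limma adjusted p = 0.0582), and the probe set of Cybb with the widest spread, from 5.39 to 7.50 over the wildtype arrays, was called in neither.

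**Figure D4:**
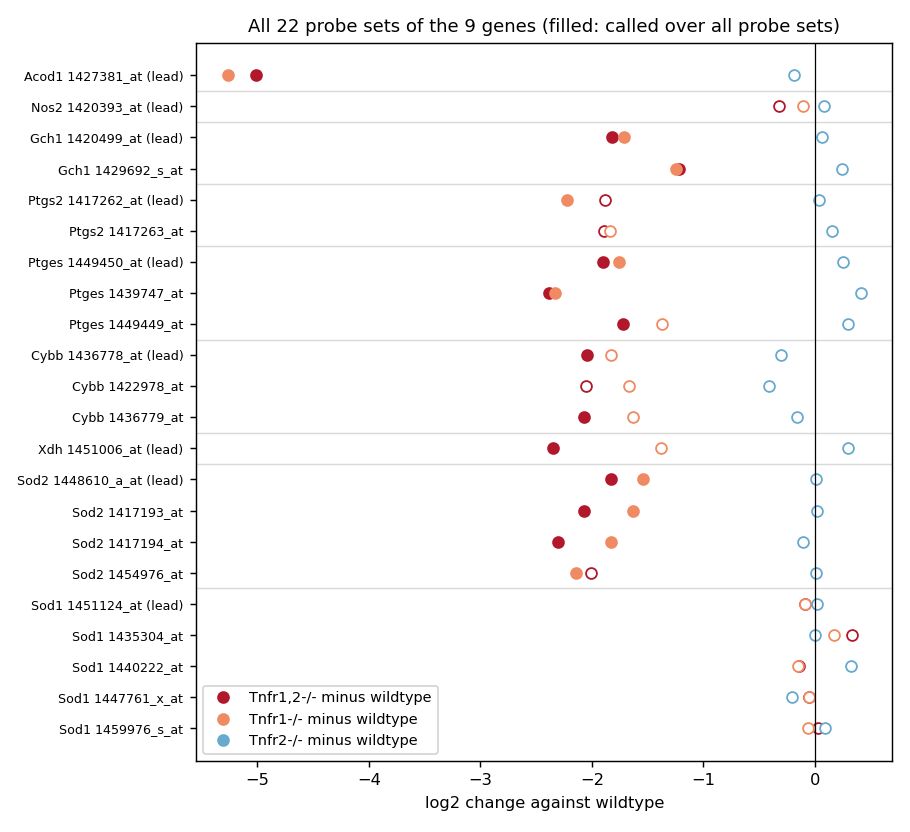
Log2 change against wildtype (horizontal axis) of all 22 probe sets of the 9 genes (rows, grouped by gene, lead probe set first), filled where called over all probe sets. The 16 probe sets of the 7 genes other than Nos2 and Sod1 lie left of -1 without Tnfr1, while Tnfr2-/- points lie around 0.

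The lower signals were seen in both array sets. Within set 1 and within set 2, 7 of the 9 genes were at least 1.5-fold lower than wildtype in Tnfr1,2-/- and in Tnfr1-/- glomeruli, and 0 were in Tnfr2-/- glomeruli. Of all genes, 3.64% and 5.51% were as much lower in Tnfr1,2-/- glomeruli within sets 1 and 2, 2.78% and 5.19% in Tnfr1-/- glomeruli, and 0.159% and 1.08% in Tnfr2-/- glomeruli. Within sets 1 and 2, Acod1 changed by -5.09 and -4.94 in Tnfr1,2-/- glomeruli, Ptges by -2.37 and -1.14, and Cybb by -2.68 and -1.87. These within-set values rest on 1 or 2 arrays a genotype and were not tested.

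Loss of TNFR2 by itself left the 9 genes without a called change. Changes in Tnfr2-/- glomeruli ran from -0.30 for Cybb to 0.29 for Xdh, with a median of 0.0373 against 0.000715 over all genes. Limma called 0 of the 9, as it called 0.0% of all genes. Tnfrsf1b, the targeted gene, was not called in this comparison either, with or without the replicate block. A missing call here therefore does not show that a gene was unchanged. At an unadjusted p under 0.05 there were 128 genes and none of the 9, and a permutation-based method, significance analysis of microarrays (SAM), called 3 genes and none of the 9. The arrays of Tnfr2-/- and wildtype glomeruli overlapped for all 9 genes, where 4.94% of all genes did not overlap. The confidence intervals were widest for Xdh (-0.59 to 1.17) and Ptgs2 (-0.86 to 0.94) and narrowest for Nos2 (-0.25 to 0.41).

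Losing TNFR2 as well as TNFR1 gave no called difference from losing TNFR1. In Tnfr1,2-/- against Tnfr1-/- glomeruli, 0 of the 9 genes were called by limma, and 1 of all genes was (0.0055%). At an unadjusted p under 0.05 there were 472 genes, 1 of them among the 9, and SAM called 4 genes and none of the 9. The 1 gene was Xdh, at -0.97 (SE 0.40, interval -1.85 to -0.09, adjusted p = 0.919), whose Tnfr1-/- arrays include the one that stood apart. Arrays of the genotypes did not overlap for 1 of the 9, Nos2, lower in Tnfr1,2-/- (-0.22, interval -0.55 to 0.11), as for 2.14% of all genes. The other 8 differences lay between -0.29 for Sod2 and 0.34 for Ptgs2.

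The direct comparisons of mutants pointed the same way as those with wildtype. In Tnfr1,2-/- against Tnfr2-/- glomeruli, which share the loss of TNFR2, 7 of the 9 genes were called lower (1.04% of all genes), from Cybb at -1.74 (limma adjusted p = 0.0339) to Acod1 at -4.83. Ptgs2 was among them at -1.92 (adjusted p = 0.0462). In Tnfr1-/- against Tnfr2-/- glomeruli, 5 of the 9 were called lower (0.846% of all genes), and Cybb (-1.52, adjusted p = 0.0747) and Xdh (-1.67, adjusted p = 0.0887) missed the threshold. With the replicate number as a block, which the labels do not give as a pairing, these 2 genes were called too, making 7 of 9. With that block, the genes called lower in the whole table rose from 154 to 305 of 18194.

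Over both Tnfr2 genotypes, the effect of losing Tnfr1 was estimated from 6 arrays against 6. By limma, 7 of the 9 genes were called lower (1.59% of all genes), and these were the same 7 under every alternative setting tried and with each array left out in turn. Acod1 changed by -5.05 (SE 0.14, adjusted p = 9.31e-09), and the other 6 lay close together, with Ptgs2 at -2.07 (SE 0.29), Xdh at -2.01 (SE 0.28), Ptges at -1.96 (SE 0.22), Gch1 at -1.80 (SE 0.17), Cybb at -1.78 (SE 0.25) and Sod2 at -1.69 (SE 0.14). Their intervals overlap, so no order among these 6 can be read. Nos2 changed by -0.25 (interval -0.48 to -0.016, adjusted p = 0.397) and Sod1 by -0.099 (interval -0.44 to 0.25, adjusted p = 0.922). Of the other list genes, 3 of 24 prostanoid, 3 of 19 nitric oxide and 2 of 14 oxidant source genes were called lower. The antioxidant list gave 1 of 25 lower, and the list around itaconate 0 of 24. Called higher were 3 of the 19 nitric oxide genes and 0 in the other lists, beside 169 of all 18194 genes.

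The effect of losing Tnfr2, estimated in the same way, was called for 0 of the 9 genes, with 5 of all genes called (0.0275%), 176 genes at an unadjusted p under 0.05 and none of the 9 among them. The interaction, which asks whether losing TNFR2 mattered more with or without TNFR1, was called for 0 genes in all (0.0%), with 245 genes at an unadjusted p under 0.05. Of the 9, only Xdh was among those, at -1.26 (interval -2.51 to -0.019, limma adjusted p = 0.998).

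**Figure D5:**
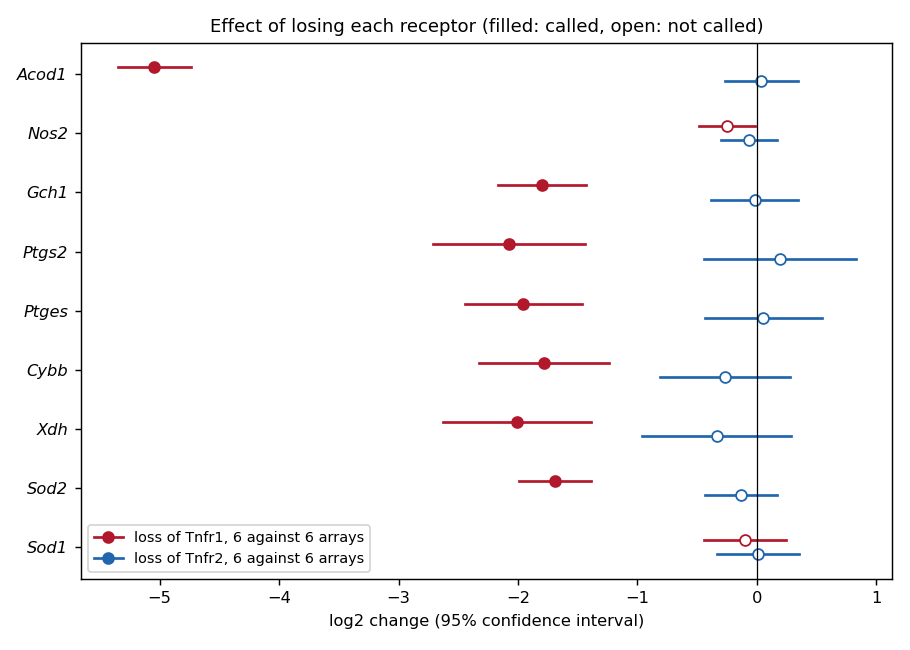
Log2 change with its 95% confidence interval (horizontal axis) of each gene (rows) on loss of Tnfr1 and on loss of Tnfr2, each from 6 arrays against 6, filled where called. All 7 called genes show a Tnfr1 effect at or beyond -1.69, and every Tnfr2 interval includes 0.

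Genes with the most similar profile were found by Pearson's r over the 12 arrays, taking the top 3 for each member. For genes that split by Tnfr1, this measure includes the split, and all points come from the same 12 arrays. Acod1 ran closest to Hp, the acute-phase protein haptoglobin (r = 0.997), Gpr84, a fatty acid receptor of myeloid cells (0.99), and Cfb, complement factor B (0.988). Sod2 ran closest to the chemokine Cxcl2 (0.994) and the interferon-inducible guanylate-binding proteins Gbp3 (0.99) and Gbp2 (0.985). Gch1 ran closest to the immunoproteasome subunit Psmb10 (0.983), Tifa (0.979) and Slc2a6 (0.976).

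Ptges ran closest to the organic anion transporter Slco2b1 (r = 0.979), Tmem132e (0.973) and again Gpr84 (0.968), and Ptgs2 to Pid1, Kcnd2 and D630004K10Rik (0.958 to 0.959). Cybb ran closest to Igsf6 (0.963), the NF-κB inhibitor Nfkbia (0.962) and Rtp4 (0.959). Xdh ran closest to Slc43a3 (0.989), the macrophage growth factor Csf1 (0.984) and Fam20c (0.976). The closest profiles of Nos2 (Mpp2, Ddx60 and Reg3a, 0.898 to 0.934) and of Sod1 (Rhox13, 2810025M15Rik and Nudt9, 0.893 to 0.924) were less alike than those of the other 7.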

How the data were processed

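Expression was measured on Affymetrix Mouse Genome 430 2.0 arrays, 3 per genotype. The authors normalized the 12 arrays together by robust multichip average, and the deposited values are log2 signals per probe set, used here as they are; their number limits the precision. Array annotation gave 34958 of 45101 probe sets 1 symbol, 932 several and 9211 none, and the first kind was tested, except in 1 alternative that tested all 45101. The 4 genotypes were fitted with limma 3.58.1 in R 4.3.3 (8 residual degrees of freedom, no trend). SAM, the method of the study, was recoded from its published description and run on lead probe sets, so its counts need not equal the study's. It served as an alternative, beside other choices of probe set, scaling, weights, filter, block and left-out arrays. Same-numbered arrays deviated together in every pair among wildtype, Tnfr1-/- and Tnfr2-/- arrays (r at least 0.184). Tnfr1,2-/- arrays 1 and 3 did so too (r at least 0.424), but array 2 did not (-0.229 to -0.0046). Some arrays with different numbers were as alike, such as Tnfr1-/- array 2 and Tnfr2-/- array 1 (0.426). Array 3 of each genotype also lay in set 2. The labels do not pair arrays, so any pairing is inferred from these data, and the block was fitted to all 12 arrays. Members, gene lists and markers were chosen with earlier results of these data known. Named genes were all members, list genes called without Tnfr1 (up to 6 a list), the closest isoenzymes or subunits, the 3 most similar profiles, the targeted genes and the first 4 markers of each cell type. Tests were checked on simulated data. Not analysed here were Ptgs1 and unstimulated glomeruli.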

Additional observations from a re-analysis of the deposited data

How the results depend on the processing

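Over all 14 alternative settings and 12 left-out arrays, the count of members called stayed within 1.5 times of the reported one, with exceptions that came from 1 array. Without wildtype array 2, 3 of 9 were called in Tnfr1,2-/- glomeruli and 3 of 9 in Tnfr1-/- glomeruli, in both cases Acod1, Gch1 and Sod2. Leaving out each array in turn gave 3 to 7 members in Tnfr1,2-/-, 3 to 6 in Tnfr1-/- and 0 in Tnfr2-/- glomeruli against wildtype, 7 for the loss of Tnfr1 and 0 for the loss of Tnfr2. Every call of Acod1, Gch1 and Sod2 held in all settings. Calls of Ptges and Cybb did not. With the 6 compared arrays only, 4 of 9 members were called in Tnfr1,2-/- and 5 of 9 in Tnfr1-/- glomeruli. Over the alternative settings, adjusted p (limma or SAM) reached 0.0575 for Ptges and 0.0563 for Cybb in Tnfr1,2-/- glomeruli. In Tnfr1-/- glomeruli it reached 0.078 for Ptges and 0.0582 for Cybb. Signs turned only where nothing was called. With array weights, Sod1 changed by 0.16 in Tnfr1,2-/- and 0.051 in Tnfr1-/- glomeruli, and with the mean of its probe sets by 0.015 in Tnfr1,2-/- glomeruli, a setting in which Sod2 changed by -0.012 in Tnfr2-/- glomeruli. With each array left out in turn, Sod1 ranged from -0.20 to 0.12 in Tnfr1,2-/-, -0.20 to 0.067 in Tnfr1-/- and -0.13 to 0.20 in Tnfr2-/- glomeruli, and Nos2 from -0.25 to 0.00465 in Tnfr1-/- and -0.068 to 0.19 in Tnfr2-/- glomeruli. In Tnfr2-/- glomeruli, Sod2 ranged from -0.065 to 0.094, Ptgs2 from -0.18 to 0.16, Ptges from -0.091 to 0.49 and Xdh from -0.033 to 0.49. The replicate block raised the count of members in Tnfr1,2-/- glomeruli to 7 by adding Ptgs2 and left 7 of 9 against Tnfr2-/- glomeruli, although Tnfr1,2-/- array 2 did not deviate with its same-numbered arrays. It changed no other count of members but that named in the report. Counts over all genes depended more on the setting: in Tnfr1,2-/- glomeruli 236 genes became 1040 with array weights (455 lower, 585 higher, against 160 and 76), 597 with the replicate block (328 lower, 269 higher), 388 with the array set as a block, 152 without wildtype array 1 and 130 without array 2. In Tnfr1-/- glomeruli 219 became 356, 437 and 470 with those terms, 97 with the 6 compared arrays only and 118 without wildtype array 2. Against Tnfr2-/- glomeruli, Tnfr1,2-/- glomeruli gave 253 genes, and 760 with array weights, 639 with the replicate block, 404 with the array set block, 168 with 6 arrays only and 147 to 167 without single arrays, while Tnfr1-/- glomeruli gave 219, and 450, 462 and 127 with the replicate block, the array set block and Tnfr2-/- array 2 left out. The loss of Tnfr1 gave 459, and 715 with array weights, 730 with the replicate block and 261 at a fold of 2. Where at most 5 genes were called, settings gave 0 to 8. The cause was not tested. The filter on dim signals left Nos2 out, and 3 arrays a group limit the precision. The replicate block for genes of the pathway lists was added after seeing the data, and the report gives the calls it added in Tnfr1-/- glomeruli against wildtype. Against Tnfr2-/- glomeruli, it added Arg1 (-1.46, limma adjusted p = 0.0483), Ptger2 (-1.45, adjusted p = 0.0185) and Pla2g4a (-1.35, adjusted p = 0.0103), all lower in Tnfr1-/- glomeruli. Abcc4 (-0.92, adjusted p = 0.0282) and Noxo1 (-0.92, adjusted p = 0.00452) were called lower there too, beside Cyba.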
